A study of Mus musculus with 16 samples.

Results

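Gene expression in the hypothalamus was compared between mice fed 1% of energy as protein and mice fed 20%, over both fat levels of the study. The animals were C57BL/6N mice, an inbred laboratory strain, and age, sex and time on the diet were not given in the sources used here. The 1% side holds 4 RNA-sequencing libraries, 2 from a diet with 60% of energy as fat and 2 from a diet with 20% as fat, and the 20% side holds 4 libraries from the matching diets. The study has 16 libraries in all, since 2.5% and 5% protein were also fed at each fat level. The contrast asks what the most severe protein restriction does to hypothalamic transcripts, and the study's title links very low protein with eating, weight and mTOR in this brain region. No other agent or genotype separates the groups in the labels. The codes of the diets at 1% and 2.5% protein begin differently from those at 5% and 20%, so diet series and protein level cannot be told apart here. Nothing in the labels ties the replicates of a diet to separate mice, so a p-value speaks only of the spread among these libraries, part of which may be technical.

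Members were chosen in 2 steps. A gene had to pass edgeR's quasi-likelihood test at a Benjamini-Hochberg adjusted p of 0.05, with fat as a covariate, and all 4 libraries of one side had to lie beyond all 4 of the other in TMM-scaled CPM, the count of a gene relative to its library's total. Of 16646 genes tested, 1520 met both conditions, 796 higher (4.78%) and 724 lower (4.35%) on 1% protein. Because the same libraries chose the genes, the separation itself is a description and carries no further test.

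The arcuate nucleus of the hypothalamus holds neurons with opposite effects on feeding. Cells that make neuropeptide Y and agouti-related peptide drive eating, and cells that cut melanocortins from proopiomelanocortin restrain it. Circulating leptin, insulin and glucocorticoids act on both, and glucocorticoids, the adrenal steroids released in fasting and stress, switch on a known set of target genes through the glucocorticoid receptor.

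The 4 libraries on 1% protein did not form an even group. Replicate 2 at 20% fat stood apart from the other 3: mitochondrial transcripts took 3.20% of its counts against 1.54% to 1.78% in the others, and markers of cortex and hippocampus summed to 966 CPM against 619 to 693 CPM. Its log2 levels also ran with gene length in the opposite direction (Spearman 0.17 across genes, against -0.26 to -0.17), while the 20% protein libraries ran from -0.095 to 0.32. Totals over all 16 libraries ran from 17731242 to 18511818 counts. Counting error at that depth was small beside the spread, since the chi-square per degree of freedom between replicates of a diet was 3.02 to 25.3, highest for the pair with that library. Hypothalamic identity genes were present in every library, with 17 of 19 tested. Hmx2 and Hmx3 were listed at 0, as were Gfap, Tubb3 and Nefl, genes of astrocytes and neurons that every brain sample holds. Of 1279 coding genes whose span other genes cover wholly, 89.4% had no count, against 20.8% of those that overlap no gene, so a listed 0 is no evidence of absence.

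On 1% protein Npy was among the genes that rose most and Pomc among those that fell most. A broad set of glucocorticoid-responsive genes rose too, among them Fkbp5, Sgk1, Plin4 and Cdkn1a, with several genes of fat use. Transcripts of blood vessels, meninges, extracellular matrix, class II antigen presentation and parts of myelin were lower. Genes called higher numbered 1375 (8.26% of genes tested) and genes called lower 1001 (6.01%), or 14.3% in all. Without scaling beyond library totals the call was 818 higher of 2163. Genes whose libraries did not overlap numbered 1232 higher (7.40%) and 1057 lower (6.35%), or 13.8% in all.

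The size of these counts rested on single libraries. Without replicate 2 at 20% fat and 1% protein, 2812 genes were higher and 2804 lower. Leaving out replicate 1 of that diet gave 439 and 500. At 60% fat and 1% protein, dropping replicate 1 gave 534 and 601 and dropping replicate 2 gave 469 and 509. On the 20% protein side the counts were 510 and 573 without replicate 1 at 60% fat, 474 and 487 without replicate 2 at 20% fat, and 685 higher without replicate 2 at 60% fat. Of the 1520 genes, 53.8% to 97.4% still passed in the same direction when 1 library was dropped. None reversed, but genes chosen because their sides lie apart could hardly do so. Fewer passed when only the 8 libraries compared were fitted, 48.2%, and 55.0% passed with a surrogate variable. Called genes whose sides overlap numbered 579 higher and 277 lower. Dropping replicate 2 at 20% fat and 1% protein alone would separate 525 and 212 of them. Dropping any other library compared would separate 10 to 119 and 14 to 64.

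Most separations were narrow. The median log2 change was 0.33 among the 796 and -0.45 among the 724, beside 0.0035 over all genes tested, and 48 and 82 changed by 1 or more on the log2 scale. The gap between the nearest libraries of the sides exceeded log2 0.5 for 42 higher and 57 lower genes and log2 1 for 11 and 5. The median length in the table was 19.2 kilobases among the 796 and 31.8 among the 724, beside 22.6 over all genes tested. With a trend by gene length removed, 87.2% of the 1520 genes still passed in the same direction. What set the difference in length was not tested. Just inside the separation were Gstz1 (log2 0.17, gap 0.00019) on the higher side and Rasl12 (-0.57), Hrh1 (-0.35) and Leng8 (-0.26) on the lower. Just outside were Rgp1 (0.20), Slc25a11 (0.28), Layn (-0.49) and Cyp27a1 (-0.35). Called genes with the smallest p whose sides overlapped were Cd101 (1.41), Eif3l (0.31), Rplp0 (0.38), Surf1 (0.38) and Spp1 (-1.06).

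**Figure D1:**
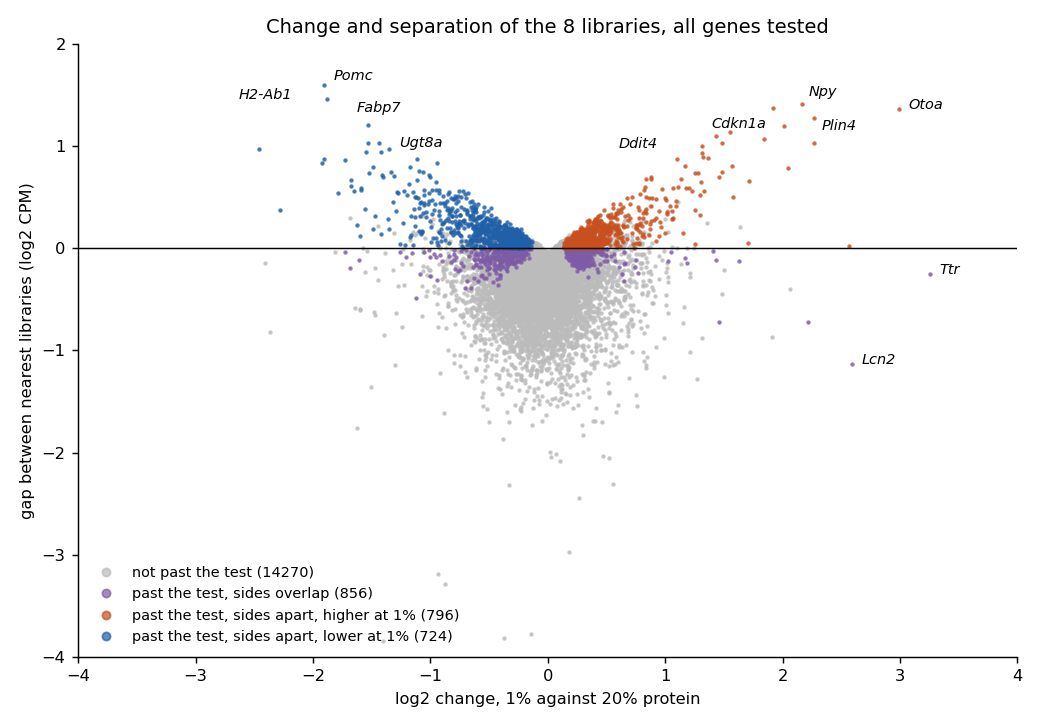
Each point is a gene tested, with the log2 change on 1% against 20% protein on the horizontal axis and the log2 gap between the nearest libraries of the sides on the vertical axis. Npy, Otoa and Pla2g3 reached gaps over 1 on the higher side and Pomc and H2-Ab1 on the lower, while most points lay near 0; 7 genes lie outside the plotted range.

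Function lists were read as counts and medians, without a test of the list, and were chosen with earlier results of these data known. Glucocorticoid targets stood out by their count, with 22 of 25 called higher and a median log2 change of 0.88. Lists of class II antigen presentation, meningeal fibroblasts and matrix had negative medians, at -1.23, -1.13 and -0.46. Over all genes tested, 8.26% were called higher and 6.01% lower, and every list count below is to be read beside these shares.

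**Figure D2:**
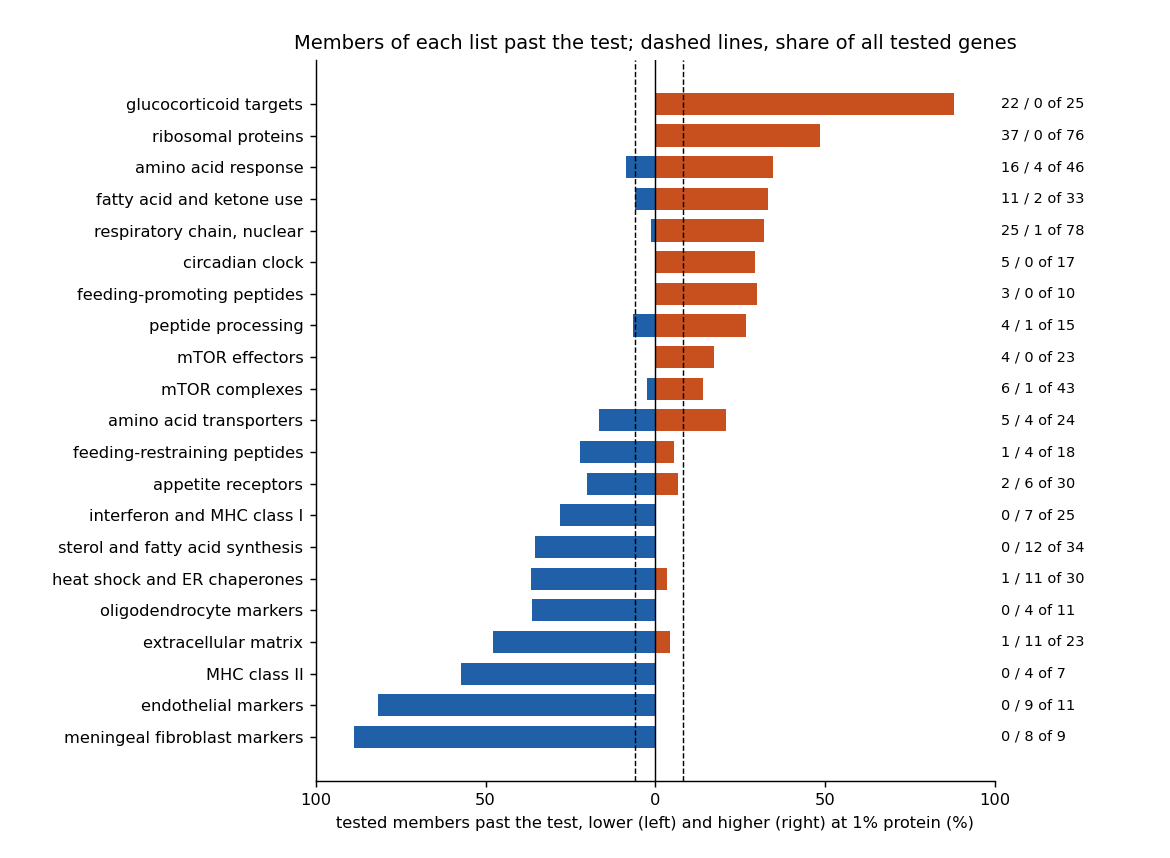
Members of a selection of the gene lists examined, called higher or lower on 1% against 20% protein, as a share of those tested. Glucocorticoid targets reach 22 of 25 higher and meningeal fibroblast markers 8 of 9 lower, beside 8.26% and 6.01% over all genes.

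Npy and Pomc changed most among the feeding peptides tested. Npy (neuropeptide Y, the appetite-driving transmitter of arcuate neurons) rose 4.50-fold and Pomc (the melanocortin precursor) fell 3.75-fold. Both starts are shown because these were the neuropeptides with the widest separation. Each is 300 bases from RefSeq on GRCm38.p6, 250 before and 50 after the start, and capitals mark the run ATAAAA just ahead of the start. That run, searched on both strands, occurs in 18.5% of 32851 promoters in the table. Npy lies at chr6:49822460-49822759, plus strand, and Pomc at chr12:3954695-3954994, plus strand.
Npy: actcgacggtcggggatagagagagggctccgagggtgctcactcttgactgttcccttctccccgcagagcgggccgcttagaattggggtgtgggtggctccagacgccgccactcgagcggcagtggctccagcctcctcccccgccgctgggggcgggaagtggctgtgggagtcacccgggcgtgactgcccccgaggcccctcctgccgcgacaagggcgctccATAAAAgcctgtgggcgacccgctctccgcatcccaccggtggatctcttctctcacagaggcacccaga
Pomc: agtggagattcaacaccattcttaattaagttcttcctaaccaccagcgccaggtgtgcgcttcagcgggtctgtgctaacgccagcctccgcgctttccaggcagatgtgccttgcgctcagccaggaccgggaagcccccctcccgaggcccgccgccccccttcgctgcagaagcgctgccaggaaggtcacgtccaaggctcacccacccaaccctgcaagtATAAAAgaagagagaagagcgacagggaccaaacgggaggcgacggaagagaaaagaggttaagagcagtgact

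Library values below are given in a fixed order, 60% fat replicates 1 and 2 and then 20% fat replicates 1 and 2. Npy stood at 57.01, 57.95, 86.4 and 119.7 CPM on 1% protein and at 15.1, 21.4, 18.97 and 13.6 CPM on 20% protein. The lowest library on 1% protein exceeded the highest on 20% by log2 1.41, and the change was 2.17 ± 0.20 (log2, SE; adjusted p = 1.10e-05). Pomc stood at 13.7, 11.5, 13.7 and 11.8 CPM on 1% protein and at 41.7, 46.5, 58.4 and 43.2 CPM on 20% protein. No library on 1% protein came near the other side, and the gap of log2 1.596 was the widest of any gene named here. Pomc changed by -1.91 ± 0.19 (adjusted p = 2.67e-05), and both calls held under all 28 alternatives.

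The intermediate diets were placed unevenly for these genes. Npy averaged 31.1 ± 8.94 CPM at 2.5% protein and 24.1 ± 2.84 CPM at 5% (SD, n = 4 each). Pomc averaged 25.3 ± 8.77 CPM and 37.7 ± 6.12 CPM. No library at 2.5% or 5% protein reached the 1% side for either gene, though some at 5% fell within the range of the 20% side.

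The other peptides moved less. Agrp (agouti-related peptide, the melanocortin antagonist made by the same neurons as Npy) stood at 7.09, 6.41, 5.92 and 8.36 CPM on 1% protein and at 3.87, 4.89, 4.49 and 5.23 CPM on 20% protein, and rose by 0.59 ± 0.13 (adjusted p = 0.0103). Its sides did not overlap, but its annotated span also covers Ripor1 and Ctcf and only 23.5% of its exon bases are unshared, so its count is uncertain. Hcrt (orexin precursor, 0.34), Pmch (melanin-concentrating hormone precursor, 0.00066), Oxt (oxytocin, 0.021) and Trh (thyrotropin-releasing hormone, 0.17) did not pass. Of 10 appetite-driving peptide genes tested, 3 rose, and of 18 restraining ones 4 fell and 1 rose, beside 8.26% higher and 6.01% lower over all genes. The number of restraining peptides that fell was 1 or 2 without any 1 of the libraries compared other than replicate 2 at 20% fat and 1% protein. It was 2 without replicate 1 at 60% fat and 2.5% protein or replicate 2 at 60% fat and 5% protein.

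Several of the smaller peptide calls were lost when any 1 of many libraries was dropped. Avp (vasopressin, -0.58) lost its call without any 1 of 11 of the 16 libraries, and the highest p came with a log2 change of -0.46, adjusted p = 0.150. Qrfp (0.78), an appetite-driving peptide, lost it for 12 libraries, with 0.57, adjusted p = 0.167. Cartpt (the satiety peptide CART, -0.44) lost it for 8, with -0.35, adjusted p = 0.118. Crh (corticotropin-releasing hormone, 0.33 with all libraries and 0.26, adjusted p = 0.125 at the highest p) and Nts (neurotensin, -0.37 and -0.30, adjusted p = 0.0891) lost it for the same 6. Those 6 were every library compared except replicate 2 at 20% fat and 1% protein and replicate 1 at 20% fat and 20% protein. Replicate 2 at 60% fat and 1% protein and both libraries at 60% fat and 20% protein were among the libraries for all 5 genes.

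Peptide-processing enzymes split. Pcsk2 (prohormone convertase 2) stood at 264, 292, 267 and 274 CPM on 1% protein and at 218, 214, 211 and 215 CPM on 20% protein and rose by 0.35 ± 0.050 (adjusted p = 4.56e-04), and Cpe (carboxypeptidase E) rose by 0.28 ± 0.044 (adjusted p = 9.87e-04). Pcsk1 (prohormone convertase 1) fell by 0.33 ± 0.063 (adjusted p = 0.00374), with all 4 libraries below the other side. Receptors for feeding signals included Npy2r (a neuropeptide Y receptor, -0.41) and Trhr (the thyrotropin-releasing hormone receptor, -0.87) among 6 that fell of 30 tested. Shares over all genes were 6.01% lower and 8.26% higher. Those that rose were Ramp3 (a receptor partner protein, 0.75, also listed below as a thalamic marker) and Ntrk2 (the receptor of brain-derived neurotrophic factor, 0.14, named after its value was seen). Neither passed without replicate 2 at 60% fat on either protein level, replicate 1 at 20% fat and 1% protein or replicate 2 at 20% fat and 20% protein. Trhr gave -0.74, adjusted p = 0.0566 without replicate 2 at 60% fat and 1% protein, and the number that fell was 2 or 3 without any 1 of 6 libraries. Those libraries were every one compared except replicate 2 at 20% fat and 1% protein and replicate 1 at 20% fat and 20% protein. Of 21 genes of leptin and insulin signalling 3 rose and 3 fell, to be read beside the same shares over all genes. The number that rose was 0 without either library at 60% fat and 1% protein and 1 without replicate 1 at 60% fat and 20% protein or either library at 20% fat and 20% protein. The number that fell was 6 without replicate 2 at 20% fat and 1% protein, and 1 without replicate 2 at 60% fat and 1% protein, replicate 1 at 20% fat and 1% protein or replicate 2 at 20% fat and 20% protein. The leptin receptor Lepr did not pass (-0.58), while Socs3, a feedback inhibitor induced by leptin signalling, fell by 0.79 ± 0.15 (adjusted p = 0.00311). Socs3 stood at 2.42, 2.70, 2.65 and 2.44 CPM on 1% protein and at 4.57, 5.00, 4.16 and 3.89 CPM on 20% protein, so its sides were well apart at low counts.

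**Figure D3:**
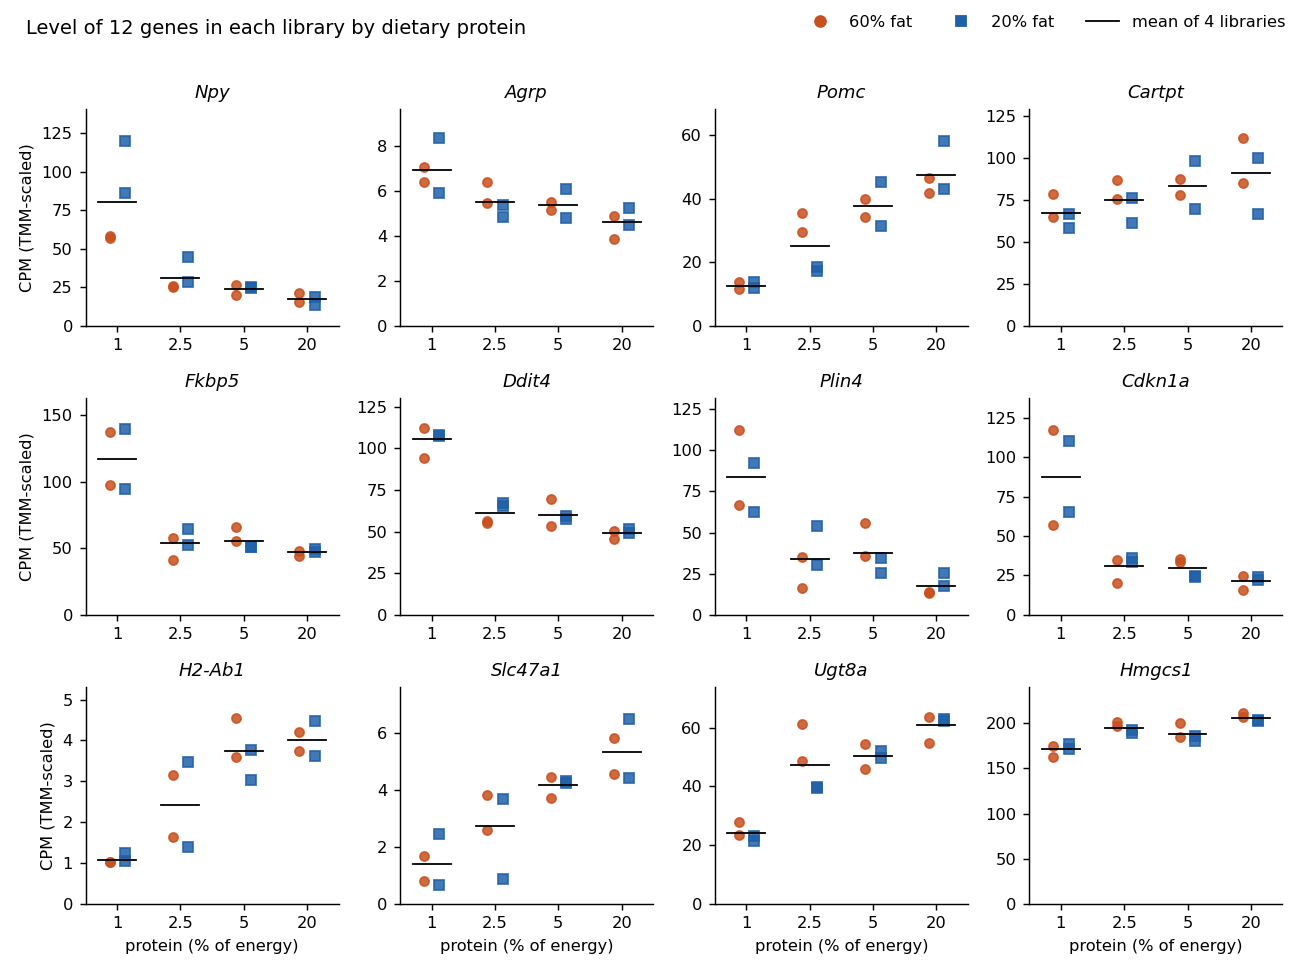
CPM (linear axis from 0) of 12 genes in each of the 16 libraries, by dietary protein as a percent of energy; circles are 60% fat, squares 20% fat and lines the mean of 4 libraries. Npy, Fkbp5 and Plin4 are higher and Pomc and Ugt8a lower in all 4 libraries on 1% protein than in all 4 on 20%.

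Glucocorticoid-responsive genes had the largest share called higher of the lists examined. The lists were chosen with earlier results of these data known, so this ranking is a description. Of 25 tested, 22 were called higher, 20 of them with no overlap, and none lower. The count stayed between 19 and 23 under every alternative. Klf9 (log2 0.29), Gjb6 (0.22) and Bcl6 (0.022) did not pass. The receptors themselves did not rise, since Nr3c2 did not pass (0.081) and Nr3c1 was lower by 0.25 ± 0.070. That call was lost without either library at 60% fat and 1% protein, replicate 1 at 60% fat and 20% protein or replicate 2 at 20% fat and 20% protein, with a log2 change of -0.21, adjusted p = 0.0915 at the highest p.

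Fkbp5, a co-chaperone that restrains the receptor and a standard readout of its activity, stood at 97.6, 137, 94.4 and 139.8 CPM on 1% protein and at 44.03, 48.01, 46.9 and 49.6 CPM on 20% protein. All 4 libraries on 1% protein were above all others, and the rise was 1.31 ± 0.14 (log2; adjusted p = 4.07e-05). Ddit4 (REDD1, an inhibitor of mTOR complex 1) stood at 94.3, 112, 107 and 108 CPM on 1% protein and at 50.2, 45.7, 51.2 and 49.3 CPM on 20% protein, with replicates close on both sides. Its change was 1.104 ± 0.080 (adjusted p = 1.38e-06). Sgk1, a kinase of ion transport and insulin-related signalling, stood at 279, 351, 271 and 292 CPM on 1% protein and at 133, 84.003, 128 and 180.1 CPM on 20% protein and rose by 1.202 ± 0.22.

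Plin4, a lipid droplet coat protein, had a larger change. It stood at 66.97, 112, 62.2 and 92.6 CPM on 1% protein and at 13.7, 13.2, 17.3 and 25.6 CPM on 20% protein, and the rise was 2.27 ± 0.32 (adjusted p = 4.38e-04). Cdkn1a, the cell cycle inhibitor p21, stood at 57.3, 117, 65.3 and 111 CPM on 1% protein and at 15.9, 24.9, 22.1 and 23.9 CPM on 20% protein, and rose by 2.01 ± 0.24. In neither gene did the sides overlap. Hif3a, a hypoxia-inducible factor subunit, rose by 1.55 ± 0.19, and Arrdc2, an arrestin-domain adaptor, by 1.48 ± 0.21. Sult1a1, a phenol sulfotransferase, rose by 1.33 ± 0.18.

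Metallothioneins, small metal-binding proteins, rose together. Mt1 stood at 374, 383, 354 and 348 CPM on 1% protein and at 199.7, 207, 217 and 194 CPM on 20% protein, and its change was 0.84 ± 0.069 (adjusted p = 3.51e-06). Mt2 rose by 0.88 ± 0.077, although only 26.5% of its exon bases are unshared, and Mt3, the brain form, by 0.45 ± 0.10. Fam107a, an actin-associated stress gene, stood at 496, 529.7, 465 and 599 CPM on 1% protein and at 282, 311, 279.8 and 314 CPM on 20% protein and rose by 0.82 ± 0.084 (adjusted p = 3.16e-05). The calls for Fkbp5, Ddit4, Sgk1, Plin4, Cdkn1a, Hif3a, Arrdc2, Sult1a1, Mt1, Mt2, Mt3 and Fam107a held under all 28 alternatives. Lcn2 (lipocalin 2) was also called, but lost its call without any 1 of 14 of the 16 libraries. Replicate 2 at 20% fat and 1% protein read 5.70 CPM, and without it Lcn2 was 0.64, adjusted p = 0.359.

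Promoters of 18 of the 20 separated glucocorticoid targets were in the RefSeq table, 29 start sites in all. The consensus of the glucocorticoid response element, written GNACA, 3 bases of any kind and TGTNC and searched on both strands, was in 5 of these (17.2%), in 4 genes. It was in 0.475% of all promoters in the table, 0.337% of those of tested genes and 0.804% of those of all separated higher genes. The list is one of known targets, so a high share was likely beforehand and is a description. Neighbouring starts of Fam107a hold the same site and were counted separately. The 4 genes are shown, with that match in capitals. They were chosen for the match, and Map3k6, a stress-activated kinase kinase kinase (log2 1.18), was named after its values were seen. Mt1 lies at chr8:94178839-94179138, plus strand, Sgk1 at chr10:21993640-21993939, plus strand, Fam107a at chr14:8309730-8310029, minus strand, and Map3k6 at chr4:133240568-133240867, plus strand.
Mt1: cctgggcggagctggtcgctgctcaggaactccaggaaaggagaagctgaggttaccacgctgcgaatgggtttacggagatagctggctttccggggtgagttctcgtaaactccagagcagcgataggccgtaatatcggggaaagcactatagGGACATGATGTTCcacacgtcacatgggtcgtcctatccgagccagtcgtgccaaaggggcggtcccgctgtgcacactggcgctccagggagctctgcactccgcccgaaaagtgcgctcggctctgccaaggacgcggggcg
Sgk1: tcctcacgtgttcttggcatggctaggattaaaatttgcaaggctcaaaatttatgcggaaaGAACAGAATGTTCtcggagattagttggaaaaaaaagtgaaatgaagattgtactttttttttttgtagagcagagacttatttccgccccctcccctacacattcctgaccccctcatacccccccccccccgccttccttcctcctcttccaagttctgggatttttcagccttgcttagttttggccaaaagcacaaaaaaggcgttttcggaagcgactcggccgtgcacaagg
Fam107a: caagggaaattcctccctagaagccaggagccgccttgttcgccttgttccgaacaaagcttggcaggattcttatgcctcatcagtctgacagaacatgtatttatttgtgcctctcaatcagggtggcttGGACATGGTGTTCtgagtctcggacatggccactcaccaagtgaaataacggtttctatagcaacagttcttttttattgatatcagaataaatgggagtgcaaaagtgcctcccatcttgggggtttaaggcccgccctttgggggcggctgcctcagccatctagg
Map3k6: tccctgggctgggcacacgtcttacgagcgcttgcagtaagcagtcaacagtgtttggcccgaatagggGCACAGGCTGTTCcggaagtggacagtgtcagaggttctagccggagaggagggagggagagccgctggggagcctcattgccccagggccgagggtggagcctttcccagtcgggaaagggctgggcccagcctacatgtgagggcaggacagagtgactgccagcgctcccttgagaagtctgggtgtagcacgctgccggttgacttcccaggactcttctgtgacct
A match is a description of letters and not of receptor binding, which was not measured. Its first base lay 94 bases before the start in Mt1, 188 in Sgk1, 118 in Fam107a and 181 in Map3k6.

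The study's theme of mTOR signalling can be read only at the level of transcripts. Mtor itself stood at 181, 182, 171 and 163 CPM on 1% protein and at 176, 172, 163 and 170.1 CPM on 20% protein and did not pass (0.032 ± 0.047, adjusted p = 0.676). Among 43 components and regulators of the mTOR complexes 6 rose, Ddit4 included, and 1 fell. Among 23 effectors 4 rose and none fell. The shares over all genes were 8.26% higher and 6.01% lower, and counts this small are a description. Eif4b, an initiation factor that the pathway phosphorylates, rose by 0.32 ± 0.052 (adjusted p = 0.00112), with all 4 libraries above the other side. The number of complex genes that rose was 1 to 3 without any 1 of the libraries compared other than replicate 2 at 20% fat and 1% protein, and without that one 11 rose and 5 fell. It was 3 without replicate 1 at 60% fat and 2.5% protein or either library at 60% fat and 5% protein. Of the effectors, 8 rose and 5 fell without replicate 2 at 20% fat and 1% protein, and the number that rose was 1 or 2 without any other library on 1% protein, replicate 1 at 60% fat and 20% protein or replicate 2 at 20% fat and 20% protein. Sesn1, a regulator of the pathway (0.23), lost its call without any of the 4 libraries compared at 60% fat or replicate 1 at 20% fat and 20% protein, with 0.20, adjusted p = 0.0985 at the highest p.

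Genes of the amino acid response, which ATF4 controls when amino acids run short, moved modestly. Of 46 tested, 16 rose and 4 fell, with a median of log2 0.17. Psat1 (serine synthesis) stood at 217, 216, 206 and 192 CPM on 1% protein and at 153, 150.2, 162 and 156 CPM on 20% protein, and rose by 0.42 ± 0.062 (adjusted p = 6.00e-04). Gpt2 (mitochondrial alanine aminotransferase) rose by 0.49 ± 0.081 and Cebpb (a transcription factor of stress and metabolism) by 0.90 ± 0.18. Only 39.6% of Cebpb's exon bases are unshared. Atf4 itself (0.19) lost its call without any 1 of 13 of the 16 libraries, and was 0.14, adjusted p = 0.167 without replicate 1 at 60% fat and 20% protein.

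Not all of this list rose. Slc7a11, the cystine importer, stood at 22.7, 23.01, 16.03 and 30.1 CPM on 1% protein and at 41.3, 45.2, 41.03 and 42.9 CPM on 20% protein and fell by 0.89 ± 0.15 (adjusted p = 0.00178). Aldh1l2, of mitochondrial folate metabolism, fell by 0.64 ± 0.12. Ddit3 (log2 0.12), Trib3 (0.24) and Chac1 (0.23), standard targets in acute amino acid stress chosen here after their values were seen, did not pass. The number that rose was 4 without either library at 60% fat and 1% protein or without replicate 1 at 20% fat and 1% protein, and 24 without replicate 2 of that diet. It was 6 to 8 without replicate 1 or 2 at 60% fat and 20% protein or replicate 2 at 20% fat and 20% protein, and 10 without replicate 1 at 60% fat and 2.5% protein or replicate 2 at 60% fat and 5% protein. Among transporters outside the ATF4 targets, Slc38a5, a glutamine carrier, fell by 1.36 ± 0.23 (adjusted p = 0.00178).

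Some genes of fat mobilisation and use rose and some of sterol and fatty acid synthesis fell. Of 33 genes of fatty acid and ketone use, 11 rose and 2 fell. Of 34 genes of lipid synthesis, none rose and 12 fell. Angptl4, a secreted inhibitor of lipoprotein lipase, stood at 14.9, 16.4, 14.7 and 16.98 CPM on 1% protein and at 6.29, 7.29, 5.89 and 5.92 CPM on 20% protein. The rise was 1.31 ± 0.11 (adjusted p = 4.59e-06) and the libraries on 1% protein were close together. Pnpla2 (adipose triglyceride lipase) stood at 91.6, 114, 91.5 and 97.6 CPM on 1% protein and at 50.2, 50.3, 56.98 and 56.7 CPM on 20% protein and rose by 0.88 ± 0.084.

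Pdk2 (an inhibitor of pyruvate oxidation) rose by 0.46 ± 0.068 (adjusted p = 5.25e-04) and Acaa2 (the last step of mitochondrial beta-oxidation) by 0.49 ± 0.080. Core oxidation enzymes such as Acadm (log2 -0.10), Acadl (0.10) and Hadha (0.051), chosen after their values were seen, did not pass. The number that rose was 7 without replicate 2 at 60% fat on either protein level, replicate 1 at 20% fat and 1% protein or replicate 2 at 20% fat and 20% protein.

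On the synthesis side, Hmgcs1, the cytosolic synthase that supplies cholesterol synthesis, stood at 162, 175, 172 and 177 CPM on 1% protein and at 211, 206, 202 and 204 CPM on 20% protein. It fell by 0.26 ± 0.045 (adjusted p = 0.00164), and no library overlapped. Cyp51 (lanosterol demethylase) fell by 0.30 ± 0.050, Msmo1 (sterol methyl oxidase) by 0.22 ± 0.050 and Scd1 (stearoyl-CoA desaturase) by 0.54 ± 0.085. Scd1 stood at 281, 304, 252 and 197 CPM on 1% protein and at 382, 357, 348 and 405 CPM on 20% protein, lowest in replicate 2 at 20% fat. The number that fell was 5 without replicate 2 at 20% fat and 20% protein, 6 or 7 without either library at 60% fat and 20% protein and 7 without replicate 1 at 60% fat and 1% protein. Without replicate 2 at 20% fat and 1% protein 12 fell and 2 rose.

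Chaperones leaned down. Of 30 heat shock and endoplasmic reticulum chaperone genes, 11 fell and 1 rose (Herpud1, log2 0.26, chosen after its value was seen). Hsph1, a co-chaperone of HSP70, stood at 271, 263, 217 and 244 CPM on 1% protein and at 317, 354, 332 and 375 CPM on 20% protein and fell by 0.47 ± 0.077 (adjusted p = 0.00118). Hspa5 (BiP, the main chaperone of the endoplasmic reticulum) stood at 369.5, 356, 339.5 and 341 CPM on 1% protein and at 420.1, 443, 432 and 438 CPM on 20% protein and fell by 0.30 ± 0.060 (adjusted p = 0.00473). Pdia3, a disulfide isomerase, fell by 0.22 ± 0.050. The number that fell was 5 to 7 without either library at 60% fat and 1% protein, replicate 1 at 20% fat and 1% protein, replicate 2 at 60% fat and 20% protein or either library at 20% fat and 20% protein.

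The promoter of Hsph1 is shown because 11 genes of its list fell and this stretch holds the heat shock element, marked in capitals and written GAA, TTC and GAA with 2 bases of any kind between each. That element, searched on both strands, is in 0.603% of promoters in the table and 1.03% of those of all separated lower genes. It is in 3 of 8 promoters (2 of 6 matched genes) of the separated chaperones. The list is one of heat shock genes, so that share was likely beforehand and is a description. In Hsph1 it lies downstream of the start, at -36 counted in bases before it and -15 from the other start listed. The start is on chr5:149636287-149636586, minus strand.
Hsph1: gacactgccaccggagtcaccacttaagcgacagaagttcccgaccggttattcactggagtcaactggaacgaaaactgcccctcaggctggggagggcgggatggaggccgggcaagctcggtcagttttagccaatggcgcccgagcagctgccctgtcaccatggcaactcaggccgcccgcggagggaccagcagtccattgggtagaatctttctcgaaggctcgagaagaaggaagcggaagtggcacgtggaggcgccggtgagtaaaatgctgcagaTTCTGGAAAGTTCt
Of 17 clock genes 5 rose, among them Cry2, a repressor of the circadian loop (0.38 ± 0.063, adjusted p = 0.00129). Per1, another repressor of the loop, lost its call without replicate 2 at 60% fat and 1% protein (0.32, adjusted p = 0.0563) or replicate 2 at 20% fat and 20% protein. Only 39.4% of Cry2's exon bases are unshared. Without replicate 2 at 20% fat and 1% protein 7 rose and 2 fell. The number that rose was 2 without replicate 2 at 60% fat and 1% protein and 3 without replicate 1 at 20% fat and 1% protein or replicate 2 at 20% fat and 20% protein.

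Class II antigen presentation genes had among the largest falls. All 4 genes called, H2-Ab1, H2-Aa, H2-Eb1 and Cd74, were lower, of 7 tested. The number lower was 4 or 5 under every alternative. Without replicate 2 at 20% fat and 1% protein, 5 were lower and 1 was higher. H2-Ab1 (a class II beta chain) stood at 1.01, 1.01, 1.05 and 1.25 CPM on 1% protein and at 4.19, 3.75, 4.49 and 3.63 CPM on 20% protein. The gap was log2 1.46 and the change -1.88 ± 0.26 (adjusted p = 3.37e-04). H2-Aa (a class II alpha chain) stood at 1.52, 0.788, 0.498 and 0.868 CPM on 1% protein and at 3.17, 2.88, 4.32 and 3.36 CPM on 20% protein, and Cd74 (the invariant chain) changed by -1.53 ± 0.23. H2-Eb1 fell by 1.23 ± 0.25.

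The promoters of H2-Aa and H2-Eb1, the members of this list with a table entry, each hold the Y box CTGATTGG, in capitals. That box, searched on both strands, is in 4.10% of promoters in the table, and the match in these chosen genes is a description. H2-Aa lies at chr17:34287774-34288073, minus strand, with the box 51 bases before the start, and H2-Eb1 at chr17:34305617-34305916, plus strand, 62 bases before.
H2-Aa: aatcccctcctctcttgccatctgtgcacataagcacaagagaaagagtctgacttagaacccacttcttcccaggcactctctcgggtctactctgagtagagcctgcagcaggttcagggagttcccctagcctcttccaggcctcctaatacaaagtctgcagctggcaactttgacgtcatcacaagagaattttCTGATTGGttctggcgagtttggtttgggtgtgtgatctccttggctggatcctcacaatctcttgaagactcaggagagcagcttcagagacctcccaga
H2-Eb1: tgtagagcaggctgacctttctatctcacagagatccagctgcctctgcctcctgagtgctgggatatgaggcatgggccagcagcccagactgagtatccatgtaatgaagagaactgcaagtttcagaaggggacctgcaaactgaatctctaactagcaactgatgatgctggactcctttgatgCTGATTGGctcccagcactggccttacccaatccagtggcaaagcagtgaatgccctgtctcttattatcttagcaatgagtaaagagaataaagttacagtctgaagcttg
Among interferon-induced and class I genes, 7 of 25 fell and none rose, including Gbp2, a guanylate-binding protein (-1.06 ± 0.21, adjusted p = 0.00461). The number that fell was 3 or 4 without either library at 60% fat and 1% protein, replicate 1 at 20% fat and 1% protein, replicate 2 at 60% fat and 20% protein or either library at 20% fat and 20% protein. Microglial Siglech (-0.62) and Ctss (-0.33, cathepsin S) were lower, but 8 of the 10 microglial markers tested did not pass. With a surrogate variable 6 of the 10 were called lower.

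Transcripts of vessels, meninges and matrix were lower on 1% protein. In bulk tissue, fewer cells of a type and less RNA per cell cannot be told apart. Of 9 meningeal fibroblast markers 8 fell, of 11 endothelial markers 9 fell, and of 23 matrix genes 11 fell and 1 rose (Sparc, log2 0.40, chosen after its value was seen). Meningeal markers summed to 90.3 to 169 CPM on 1% protein against 199 to 245 CPM on 20%. Endothelial markers summed to 266 to 286 CPM against 322 to 374 CPM, and mural markers to 172 to 187 CPM against 215 to 238 CPM. The sums did not overlap in any of these 3 lists. At 2.5% protein, meningeal sums were 114, 159, 99.0 and 177 CPM, near the 1% side, against 192 to 210 CPM at 5%. Mural sums at 2.5% were 185, 205, 178 and 231 CPM and endothelial sums 298, 307, 318 and 383 CPM. The lower meningeal level was thus not particular to 1% protein, and diet series and protein level cannot be told apart. Of the 8 mural markers 4 fell, and 2, Kcnj8 (0.65) and Abcc9 (0.27), channel subunits of pericytes, rose. Abcc9 lost its call without any 1 of the 16 libraries. Whether the amount of meninges or vessel in each sample set them was not tested.

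Col1a1, a chain of type I collagen, stood at 8.95, 7.20, 6.52 and 9.17 CPM on 1% protein and at 15.97, 17.2, 18.5 and 20.01 CPM on 20% protein. It fell by 1.17 ± 0.13 (adjusted p = 4.07e-05). Col3a1 (type III collagen) fell by 1.44 ± 0.18 and Serpinh1 (the collagen chaperone HSP47) by 0.86 ± 0.13. Kdr, the main VEGF receptor of endothelium, stood at 10.97, 8.16, 10.01 and 7.76 CPM on 1% protein and at 17.3, 17.4, 16.001 and 19.3 CPM on 20% protein. It fell by 0.92 ± 0.13 (adjusted p = 4.51e-04), and Cdh5, the endothelial cadherin, by 0.78 ± 0.13. Slc47a1 and Slc22a6, organic cation and anion transporters of meninges, fell by 1.92 ± 0.36 and 1.49 ± 0.25. The endothelial count was 4 or 5 without replicate 2 at 60% fat and either protein level, replicate 1 at 20% fat and 1% protein or replicate 2 at 20% fat and 20% protein.

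Oligodendrocyte genes were divided. Ugt8a, the synthase of myelin galactolipids, stood at 27.97, 23.5, 21.5 and 23.01 CPM on 1% protein and at 63.5, 54.8, 62.3 and 62.95 CPM on 20% protein. Its gap was log2 0.97 and it fell by 1.35 ± 0.11 (adjusted p = 3.51e-06). Aspa (aspartoacylase) fell by 0.73 ± 0.074 and Ermn (ermin) by 0.69 ± 0.13. Of the 11 markers 4 fell and 7 did not pass, while with a surrogate variable 7 fell. The marker sum overlapped between the sides, at 8154 to 10674 CPM against 9357 to 11180 CPM. Among astrocyte markers, Aqp4 (the water channel) fell by 0.86 ± 0.13 while Agt (0.58), Aldoc (0.36), Aldh1l1 (0.35) and Slc1a3 (0.16) rose. Slc1a3 lost its call without any 1 of 13 of the 16 libraries, with 0.12, adjusted p = 0.162 without replicate 1 at 60% fat and 1% protein.

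Some markers of neighbouring tissue also differed. Of 8 thalamic markers 5 rose, Ramp3 among them, and the 8 summed to 458 to 758 CPM on 1% protein against 276 to 399 CPM on 20%. The number that rose was 1 without replicate 2 at 60% fat on either protein level or replicate 1 at 20% fat and 1% protein. It was 3 without replicate 2 at 20% fat and 20% protein, and 0 with a surrogate variable. Cortex markers gave no call (of 12), pituitary none (of 5) and blood none (of 4), and of 17 hypothalamic identity genes 3 fell and none rose. The number that fell was 0 without replicate 2 at 60% fat on either protein level or replicate 2 at 20% fat and 20% protein, and 1 without replicate 1 at 60% fat and 20% protein, replicate 1 at 20% fat on either protein level or replicate 2 at 60% fat and 5% protein. Their CPM summed to 222 to 325 CPM against 277 to 301 CPM. Choroid plexus markers reached 267 CPM in replicate 2 at 20% fat and 1% protein where Ttr (transthyretin) was also highest. Ttr stood at 90.05, 30.2, 12.6 and 210.5 CPM on 1% protein and at 15.1, 4.84, 7.03 and 5.39 CPM on 20% protein. Ttr rose by 3.26 ± 0.93 with overlapping sides, and lost its call without either library at 60% fat and 1% protein, replicate 2 at 60% fat and 20% protein or either library at 20% fat and 20% protein, with 2.85, adjusted p = 0.110 without replicate 2 of that last diet. The part of dissection in any gene above was not tested.

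**Figure D4:**
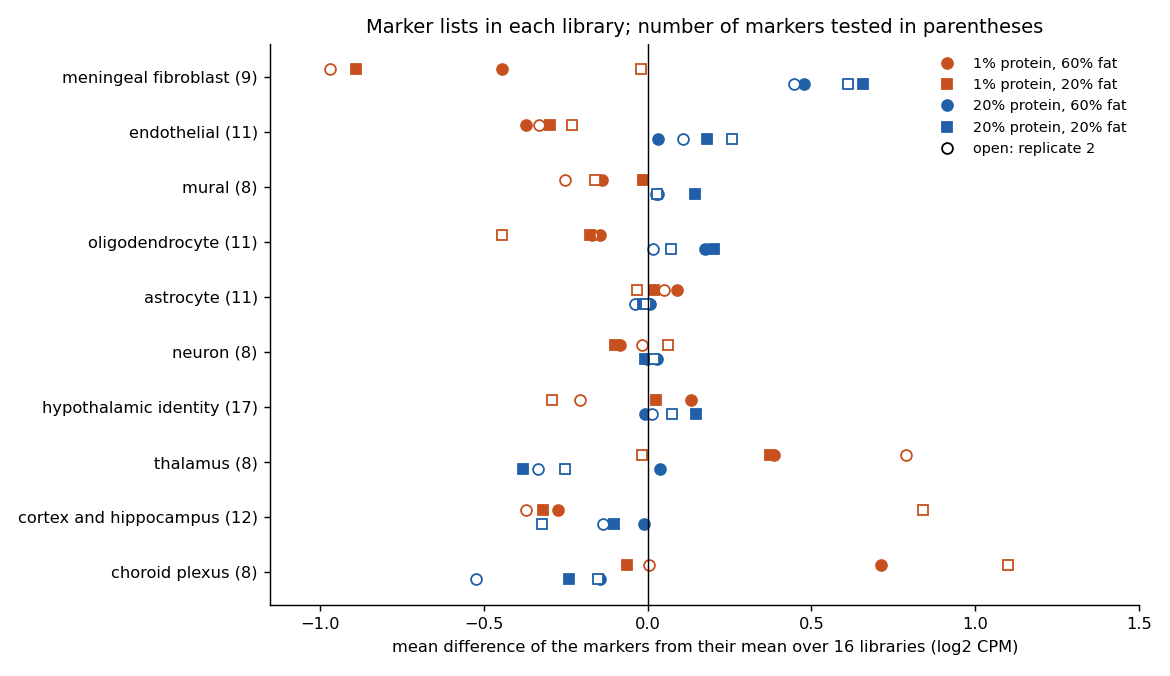
Mean difference of each list's markers from their own mean over the 16 libraries (log2 CPM, horizontal axis), 1 point a library, with colour for protein, shape for fat and open points for replicate 2. Meningeal, endothelial and mural markers are lower in all 4 libraries on 1% protein, with meningeal values of -0.97 to -0.020 against 0.45 to 0.66, while thalamic values overlap.

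Many ribosomal protein and nuclear respiratory genes rose by small amounts, and single libraries decided how many. Of 76 ribosomal protein genes 37 rose and none fell, but 10 of the 37 had no overlap. The median change was log2 0.25. The number was 7 to 12 without either library at 60% fat and 1% protein, replicate 1 at 20% fat and 1% protein, replicate 1 at 60% fat and 20% protein or replicate 2 at 20% fat and 20% protein. Of 78 nuclear respiratory chain genes 25 rose and 1 fell, with 1 to 50 rising under the alternatives. That count rose to 47 without replicate 2 at 20% fat and 1% protein, to 38 without replicate 1 at 20% fat and 20% protein, and was 16 or fewer without any 1 of the others except both at 20% fat and 5% protein. With the length trend removed, 33 ribosomal protein and 24 nuclear respiratory chain genes rose. Ribosomal protein genes have near-identical copies, so their counts are uncertain. Of 12 mitochondrially encoded genes 1 was called lower, a share near the 6.01% over all genes, and 11 were without replicate 2 at 20% fat and 1% protein. Their median log2 change was -0.70 at 60% fat and 0.0075 at 20% fat. None was called without either library at 60% fat and 1% protein, either at 60% fat and 20% protein, replicate 1 at 20% fat and 1% protein, replicate 2 at 20% fat and 20% protein, replicate 1 at 60% fat and 2.5% protein or replicate 2 at 60% fat and 5% protein. Whether the mitochondrial share moves these calls was not tested.

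Among the largest changes were genes outside these lists. Otoa (otoancorin, known from the inner ear) stood at 1.69, 2.03, 2.87 and 3.58 CPM on 1% protein and at 0.591, 0.163, 0.162 and 0.320 CPM on 20% protein, and rose by 2.99 ± 0.45 (adjusted p = 6.46e-04). Pla2g3 (a secreted phospholipase) stood at 13.3, 15.5, 14.7 and 26.3 CPM on 1% protein and at 4.52, 4.30, 4.38 and 5.07 CPM on 20% protein and rose by 1.92 ± 0.20, though only 73.3% of its exon bases are unshared. Itgad (integrin alpha D) rose by 2.26 ± 0.27, with 64.1% unshared. Klrg2 rose by 1.84 ± 0.23, Wfikkn2 (an inhibitor of growth factors of the TGF-beta family) by 1.71 ± 0.20 and Gabrr2 (a GABA receptor subunit) by 1.37 ± 0.19.

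On the falling side, Fabp7, a brain fatty acid binding protein of astrocytes and radial glia, stood at 8.44, 6.81, 7.08 and 7.16 CPM on 1% protein and at 19.9999, 19.7, 24.1 and 21.3 CPM on 20% protein. It fell by 1.53 ± 0.23 (adjusted p = 5.82e-04), with a gap of log2 1.21. Thbd (thrombomodulin, of endothelium) stood at 5.01, 4.84, 4.81 and 10.1 CPM on 1% protein and at 16.2, 20.7, 22.4 and 20.01 CPM on 20% protein, with replicate 2 at 20% fat the highest on its side. Thbd fell by 1.68 ± 0.23. Nes (nestin) fell by 0.94 ± 0.13 with its replicates close together, and Cd93, an endothelial receptor, by 1.12 ± 0.13. Slc26a7 (-1.62) lost its call without either library at 60% fat and 1% protein, replicate 2 at 60% fat and 20% protein, replicate 1 at 20% fat and 1% protein or replicate 2 at 20% fat and 20% protein, with -1.397, adjusted p = 0.0818 at the highest p.

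The change was also read at each fat level, where the libraries are separate. At 60% fat 328 genes were higher (1.97%) and 379 lower (2.28%), and at 20% fat 100 (0.601%) and 197 (1.18%). Of the 328, 319 (97.3%) had a positive change at 20% fat, where 53.0% of all genes did, and 206 of them had an unadjusted p under 0.05 in that direction. Of the 379, 30 were positive and 174 had an unadjusted p under 0.05 in the falling direction. Over all 16646 genes tested, 1299 rose and 1269 fell at an unadjusted p under 0.05 at 20% fat. In reverse, 96 of the 100 and 1 of the 197 were positive at 60% fat, where 50.7% of all genes were. The counts fell to 11 to 64 higher and 5 to 20 lower at 60% fat when any 1 library of the 4 was dropped. At 20% fat they became 443 and 362 without replicate 2 on 1% protein, 29 and 51 without replicate 1 on 20% protein and 20 and 33 without replicate 2 on 20% protein.

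Npy changed by 1.66 ± 0.23 at 60% fat and 2.66 ± 0.23 at 20% fat (log2, SE). Pomc changed by -1.81 ± 0.19 and -1.99 ± 0.19, and Fkbp5 by 1.35 ± 0.20 and 1.28 ± 0.20. Whether the change differed with fat was tested directly, and no gene passed (0% higher, 0% lower), although 1305 had an unadjusted p under 0.05. The gene with the smallest p was Cryab, an alpha-crystallin chaperone, with -0.14 ± 0.14 at 60% fat and -1.02 ± 0.14 at 20% (difference -0.89, adjusted p = 0.623). Tfrc, the transferrin receptor, changed by 0.013 ± 0.084 and 0.52 ± 0.084. A p above the threshold does not show that the fat levels act alike, and the simulated data recovered 10 of 100 differences of log2 0.5.

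**Figure D5:**
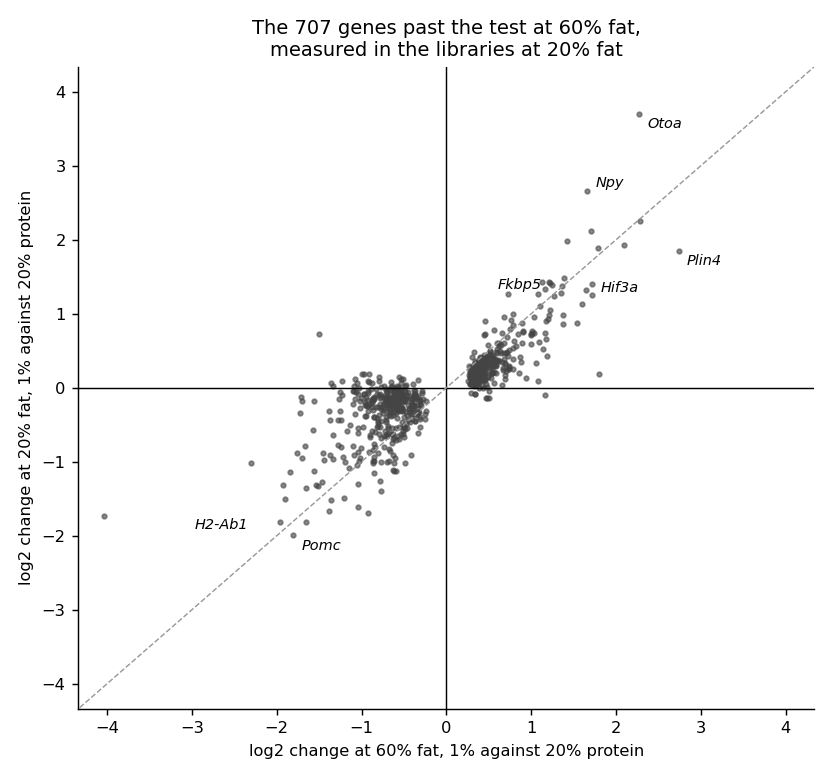
Log2 change on 1% against 20% protein at 60% fat (horizontal) and at 20% fat (vertical) for the 707 genes called at 60% fat. Of these, 319 of the 328 called higher lie above 0 at 20% fat and 30 of the 379 called lower do. Over all genes tested the share above 0 is 53.0%.

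The 2.5% and 5% protein libraries had no part in the separation, but they entered the fit that made the calls, so the following is a description. No gene passed 2.5% against 5% protein by edgeR (717 at an unadjusted p under 0.05, 13 by DESeq2). Of the 796 higher genes 440 (55.3%) were also higher at 2.5% than at 5% protein, against 50.9% of all genes, and of the 724 lower genes 210 (29.0%) were. The share of higher genes was 42.1% without replicate 1 at 20% fat and 2.5% protein 45.5% without replicate 2 at 20% fat and 5% protein and 65.1% without replicate 2 at 60% fat and 2.5% protein. Npy changed by 0.35 ± 0.20 (adjusted p = 1.00) and Pomc by -0.60 ± 0.18 (adjusted p = 0.634) from 5% to 2.5%.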

How the data were processed

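Total RNA, extracted with Trizol per the labels' protocols, was sequenced from 16 hypothalamus libraries of 8 diets. The authors deposited raw gene counts for 47069 genes. Per the submitters' processing notes, reads on GRCm38 involved HISAT2 2.1.0, featureCounts, Subread 5.0, SAMtools 1.2, edgeR and FastQC. No source used here gives the strand setting, so a gene and its antisense neighbour cannot be told apart. For 85.5% of 46574 identifiers matched to GENCODE M21 the length in the table equals the whole span, so introns were counted too. Totals ran from 17731242 to 18511818.

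Genes were kept by filterByExpr (minimum count 10), scaled by TMM and tested with the edgeR quasi-likelihood test (edgeR 4.0.16, R 4.3.3) at an adjusted p of 0.05 (Benjamini-Hochberg), on all 16 libraries with protein as 4 levels and fat as a covariate. Fat levels and their difference used the 8 diets as groups. Log2 CPM used a prior count of 2. Replicate numbers were not a block: samples with the same number did not deviate together, with 7 of 28 pairs of diets over a correlation of 0.1.

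Named genes were the 15 highest and 15 lowest changes and 10 widest gaps each way with a mean of at least 1 CPM, up to 6 called members of each list, 23 core feeding, glucocorticoid and mTOR genes, genes at the edge of the separation and those leading the fat difference. The members and lists, like this naming rule, were chosen with earlier results of these data known, and list members named outside the rule were picked after their values were seen. Alternatives were other scalings, filters and tests (DESeq2 1.42.0), a surrogate variable (sva 3.50.0), a length trend removed, the replicate block, fewer libraries and leaving out each library. On simulated counts with changed genes in 16646, 66 of 100 changes of log2 0.5 and 92 of 100 of log2 1 were recovered for 1% against 20% protein, with 7 false calls of 16446 unchanged genes. The sides of 467 unchanged genes did not overlap. The simulated libraries were independent, with no outlying library and no length trend, so these rates may not carry over. Promoters are from RefSeq (GRCm38.p6) and matched 172 of 221 named genes.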

Additional observations from a re-analysis of the deposited data

Results flagged for a closer look

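In 442 sets of 4 libraries (a named gene on one protein level), 37 had a library whose distance from its nearest neighbour took more of the set's whole range than Dixon's critical value for 4 samples allows; chance gives about 1 set in 20. Replicate 2 at 20% fat and 1% protein held 18 of them, 11 as the highest and 7 as the lowest.
Replicate 1 at 20% fat and 20% protein stood highest in Agt at 382 CPM.
For Aqp4 at 91.5 CPM, Lum at 1.63 CPM and Ugt8a at 54.8 CPM, the lowest library was replicate 2 at 60% fat and 20% protein.
Replicate 1 at 60% fat and 20% protein stood highest in Aspa at 38.98 CPM and Ramp3 at 36.1 CPM.
For Cd101 at 0.732 CPM, the lowest library was replicate 1 at 60% fat and 1% protein.
Replicate 2 at 20% fat and 1% protein stood lowest in Cebpb at 3.96 CPM, Gabarapl1 at 609.8 CPM, Maf1 at 79.7 CPM, Ndufb9 at 149 CPM, Ndufv1 at 215 CPM, Rpl3 at 206 CPM and Slc25a11 at 152 CPM.
For Cebpb at 3.25 CPM, Htr1b at 19.9 CPM, Itgad at 1.76 CPM, Npy2r at 23.2 CPM, Pdia3 at 269 CPM and Sesn1 at 63.2 CPM, the highest library was replicate 2 at 20% fat and 20% protein.
Replicate 2 at 60% fat and 1% protein stood highest in Cyp51 at 79.5 CPM, Hr at 217 CPM and Plekhg1 at 113 CPM.
For Eif4b at 265 CPM and Msmo1 at 94.7 CPM, the highest library was replicate 2 at 60% fat and 20% protein.
Replicate 2 at 20% fat and 1% protein stood highest in Ermn at 58.1 CPM, Fn1 at 50.4 CPM, Gad2 at 419 CPM, H2-Ab1 at 1.25 CPM, Lcn2 at 5.70 CPM, mt-Nd2 at 2280.5 CPM, Pcsk1 at 36.1 CPM, Pla2g3 at 26.3 CPM, Spp1 at 16.1 CPM, Thbd at 10.1 CPM and Tlr4 at 1.79 CPM.
For Myh11 at 9.78 CPM, the lowest library was replicate 1 at 60% fat and 20% protein.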

How the results depend on the processing

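Of the 221 genes named, 212 passed the test, 112 of them under all 28 alternatives while 17 were lost under at least 14. None of the 212 reversed, which was likely beforehand because the same libraries chose them. Called genes numbered 1375 higher and 1001 lower; higher counts were 818 with library totals only, 563 with a surrogate variable, 356 with only the 8 libraries and 2967 without the 2 libraries carrying cortex markers, and lower counts 450 and 2922 in the last 2 settings. Leaving out 1 library gave 439 to 2812 higher and 487 to 2804 lower. The cause was not tested. At 60% fat the 328 higher and 379 lower became 749 and 1382 without the count filter and 601 and 912 by DESeq2, and 11 to 64 and 5 to 20 when leaving out 1 library. At 20% fat the 100 and 197 became 217 and 343 without the filter, and 20 to 443 and 33 to 362 when leaving out 1 library. The difference between fat levels called 0 higher and 1 lower without the filter. For 2.5% against 5% protein, 1 higher and 11 lower were called without the filter, 1 and 12 by DESeq2, and 0 to 4 lower when leaving out 1 library. Genes that did not overlap numbered 3496 higher in place of 1232 and 3167 lower in place of 1057 without replicate 2 at 20% fat and 1% protein. A side with fewer libraries can only gain such genes, and no other library was left out for this count.

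Replicate numbers showed no steady pairing of the samples (correlations of deviations -0.17 to 0.16 among the 4 diets compared, up to 0.34 over all diets). With the replicate number as a block the calls were 1607 higher and 1179 lower, 765 and 1093 at 60% fat, 125 and 240 at 20% fat and 0 for the other contrasts.

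Each diet has 2 libraries, and the diet series cannot be told apart from protein level. Depth did not limit the comparison of abundant genes, but 12 higher and 33 lower separated genes had means below 1 CPM. Genes whose spans overlap others may have been counted incompletely.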
